A study of Mus musculus with 12 samples.

Results

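This section describes 56 genes for splicing factors and neuronal RNA-binding proteins, of 23079 genes in the deposited count table, in dopaminergic neurons of the mouse midbrain. They are the genes listed under names that begin with Srsf, Hnrn, Celf, Rbfox, Elavl, Mbnl, Ptbp or Khdrbs, together with Nova1, Nova2 and Srrm1 to Srrm4. All 56 were matched to a RefSeq gene. The study compared dopaminergic neurons of the substantia nigra pars compacta (SNpc) with those of the ventral tegmental area (VTA), and both groups came from C57BL/6 mice. SNpc neurons are the more vulnerable population in Parkinson disease. The labels call the samples TRAP, read here as translating ribosome affinity purification, which pulls down the RNA held by tagged ribosomes of a chosen cell type. The sources used here do not give the line and promoter behind the tag, the age and sex of the mice or any pooling.

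The table has 6 columns per region, and 2 pairs of columns, SNpc 4 and 5 and VTA 2 and 3, held the same count for every gene. Each pair differed by less than the sampling noise and was counted as 1 sample, which left SNpc libraries 1, 2, 3, 4 and 6 and VTA libraries 1, 2, 4, 5 and 6. Each library held 62356964 to 81393907 counts in total. The labels do not tie the libraries to separate animals, so p-values reflect only their spread, part of which may be technical. Levels are given in CPM, the count of a gene relative to the library total, after scaling of the library sizes, as mean ± SD with n = 5 per region. Log2 fold changes are SNpc over VTA, so a negative value means a lower level in SNpc. A gene was called when the adjusted p of edgeR's quasi-likelihood test, with Benjamini-Hochberg adjustment over all 15685 genes tested, was under 0.05.

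Pre-mRNA splicing joins exons, and the choice among alternative exons is set by proteins that bind near them. SR proteins (the Srsf genes) mostly bind exonic enhancers and promote exon use, whereas many hnRNP proteins (the Hnrnp genes) bind silencers or package nascent RNA. Neurons add further regulators. NOVA proteins bind YCAY motifs, RBFOX proteins bind GCAUG, MBNL and CELF proteins often act on the same exons in opposite directions, and PTBP1 represses neuronal exons in non-neuronal cells until it gives way to PTBP2. The neuronal ELAVL (Hu) proteins bind U-rich and AU-rich RNA and also control mRNA stability.

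Of the 56 genes, 55 were tested, with calls in both directions. Nova1, Celf5 and Mbnl1 were lower in SNpc libraries than in VTA libraries with no overlap between the regions, by 2.48-fold, 2.04-fold and 1.42-fold. Among the hnRNP and SR genes, 12 were called higher in SNpc, from 1.20-fold for Hnrnpa3 to 1.57-fold for Hnrnpa0. In all, 18 genes were called higher in SNpc, which is 32.7% of those tested, against 17.8% of all genes tested. A further 6, or 10.9%, were called higher in VTA, against 20.4% of all genes tested. The remaining 31 were not called, and 41 of the 55 fold changes were positive. The median log2 fold change was 0.20 over the 55 genes and -0.04 over all genes tested. The libraries of the regions did not overlap for 16 of the 55 genes, or 29.1%, close to the 26.6% of all genes, with 12 higher in SNpc and 4 higher in VTA. Mbnl3 was not tested because it was near 0 in every library, at most 0.126 CPM.

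**Figure D1:**
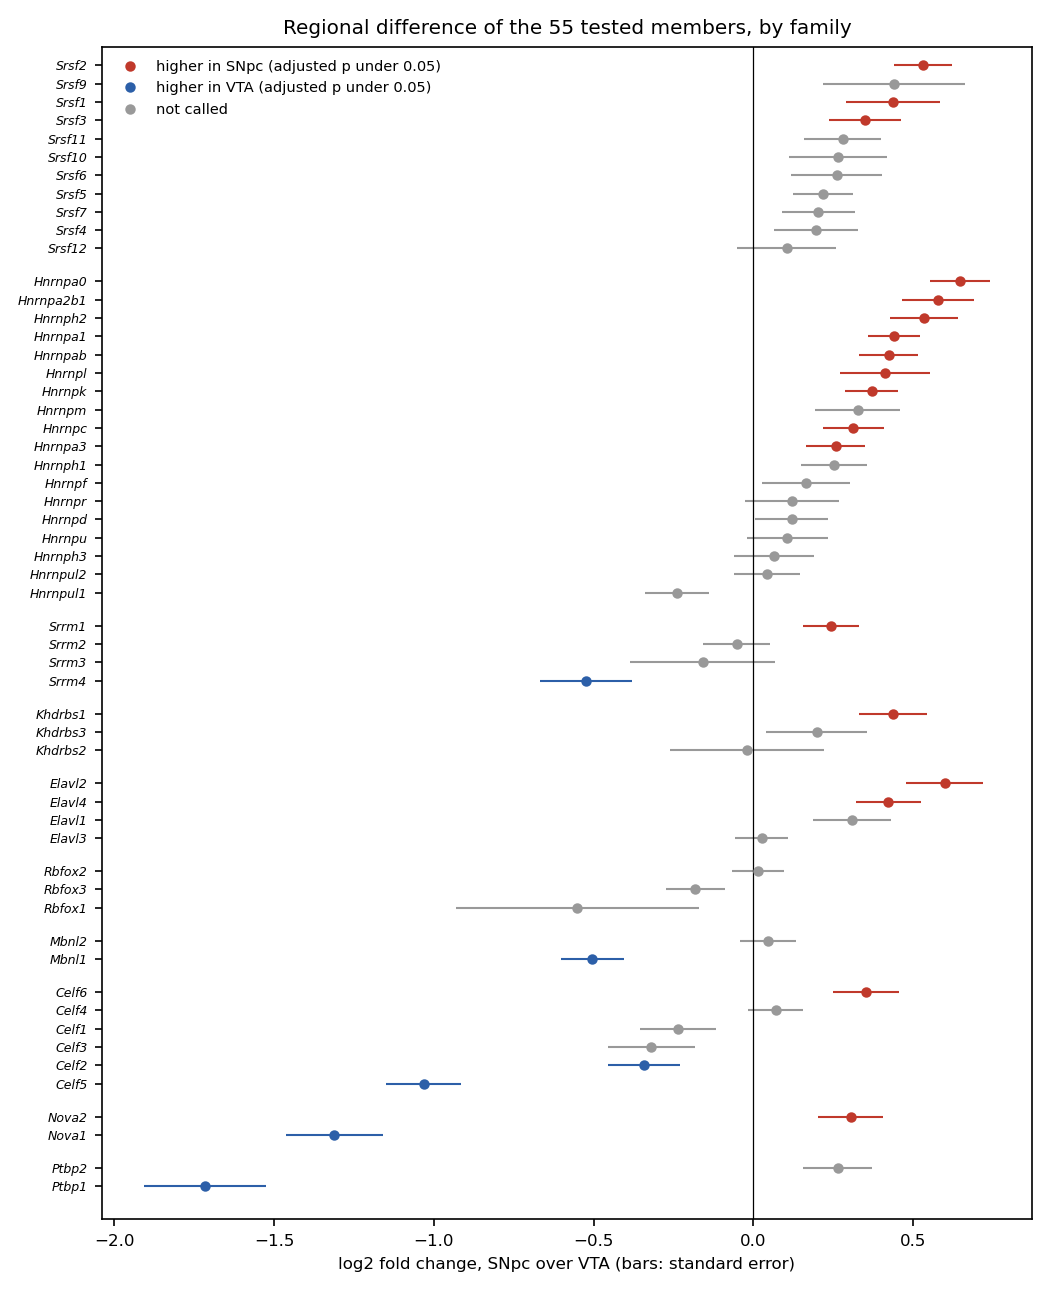
Log2 fold change (x axis, SNpc over VTA) of the 55 tested genes, ordered within families, with bars for the standard error of the fit on 5 libraries per region and colour for the call at an adjusted p under 0.05. All 11 Srsf genes and 17 of 18 Hnrnp genes lie right of 0, and Ptbp1, Nova1 and Celf5 lie farthest left.

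The libraries differed in more than the genes described here, and their values are given here. All 10 dopaminergic markers were detected and 9 were called higher in SNpc, with a summed level of 12096 to 17624 CPM in SNpc libraries and 6682 to 9714 CPM in VTA libraries. Markers of glutamate neurons summed to 18.6 to 87.7 CPM in SNpc and 93.1 to 131 CPM in VTA, with 2 of 3 called higher in VTA. Those of astrocytes summed to 263 to 459 CPM in SNpc and 454 to 600 CPM in VTA, with 3 of 9 called higher in VTA. Those of oligodendrocytes summed to 274 to 1333 CPM in SNpc and 688 to 860 CPM in VTA, with 1 of 10 called higher in VTA. SNpc library 4 alone held the 1333 CPM, and the other 4 SNpc libraries, at 274 to 486 CPM, lay below every VTA library. Without SNpc library 4, 7 of the 10 oligodendrocyte markers and 6 of the 9 astrocyte markers were called higher in VTA. Microglial markers summed to 15.5 to 42.2 CPM in SNpc and 38.2 to 54.9 CPM in VTA, with 2 of 9 called higher in VTA. Endothelial and mural markers summed to 20.4 to 32.5 CPM in SNpc and 28.5 to 151 CPM in VTA, and 4 GABA neuron markers to 294 to 518 CPM in SNpc and 306 to 399 CPM in VTA. None of these lists had every marker at 0. RNAs kept mostly in the nucleus, such as Malat1 and Meg3, summed to 353 to 653 CPM in 4 SNpc libraries, 2643 CPM in SNpc library 4 and 1208 to 2008 CPM in VTA libraries. Relative to the average library, levels also declined with transcript length in SNpc (-0.211 to -0.066 in log2 CPM for each doubling of length) and increased with it in VTA (0.084 to 0.271). These are bulk samples, so fewer cells of a type and less RNA per cell cannot be told apart. Unless a value is given beside a result, the part of these differences in it was not tested.

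The NOVA pair went in opposite directions. Nova1 (Entrez 664883), a KH-domain splicing regulator of neurons, lies on mm10 at chr12:46697895-46819480. It had 179, 266, 300, 172 and 263 CPM in SNpc libraries, against 556, 660, 552, 672 and 483 CPM in VTA libraries. The highest SNpc library lay well below the lowest VTA library. The mean was 236 ± 57.3 CPM in SNpc and 585 ± 79.9 CPM in VTA (SD, n = 5 each). On the log2 scale the change was -1.31 ± 0.15 (edgeR adjusted p = 7.93e-06), where the error, here and for later fold changes, is the standard error of the fit. No window of read length in its main transcript was shared with another annotated gene. Over all its annotated exons, Gm33869 on the same strand shares 310 bases, or 3.54%. It remained called under all 19 alternative analyses, with log2 fold changes of -1.53 to -0.87. These include -1.53 with glial markers as a covariate, -1.15 without SNpc library 4 and -0.88 with the trend in transcript length removed.

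Nova2, its paralog, which guides axon and synapse related exons in cortical neurons, lies at chr7:18925888-18965319. It had 282, 259, 230, 208 and 265 CPM in SNpc libraries, against 194, 207, 219, 217 and 170 CPM in VTA libraries. The ranges overlapped, since SNpc library 4 lay below 2 VTA libraries. The log2 fold change was 0.30 ± 0.10 (edgeR adjusted p = 0.0255), with means of 249 ± 29.7 CPM in SNpc and 201 ± 19.996 CPM in VTA. The call was lost in 8 of the 19 alternatives, among them glial markers as a covariate (0.14), and the value was 0.81 with the length trend removed. An annotated transcript, Gm26821, shares 29.7% of the read-length windows of Nova2, so its count is less certain than that of Nova1.

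The proportion of the 2 NOVA transcripts was therefore compared within each library. The ratio of Nova1 to Nova2 CPM was 0.632, 1.03, 1.30, 0.825 and 0.993 in SNpc libraries, against 2.87, 3.19, 2.52, 3.10 and 2.84 in VTA libraries. The ratio was at most 1.30 in SNpc and at least 2.52 in VTA. The mean log2 ratio was -0.11 ± 0.39 in SNpc and 1.53 ± 0.13 in VTA. The difference of -1.64 had a two-sided exact permutation p of 0.00794, the smallest that 5 against 5 libraries allow, and an adjusted p of 0.0220 over the 36 pairs of paralogs compared. The ratio does not depend on library scaling, and both main transcripts are long, at 7154 and 8372 bases.

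**Figure D2:**
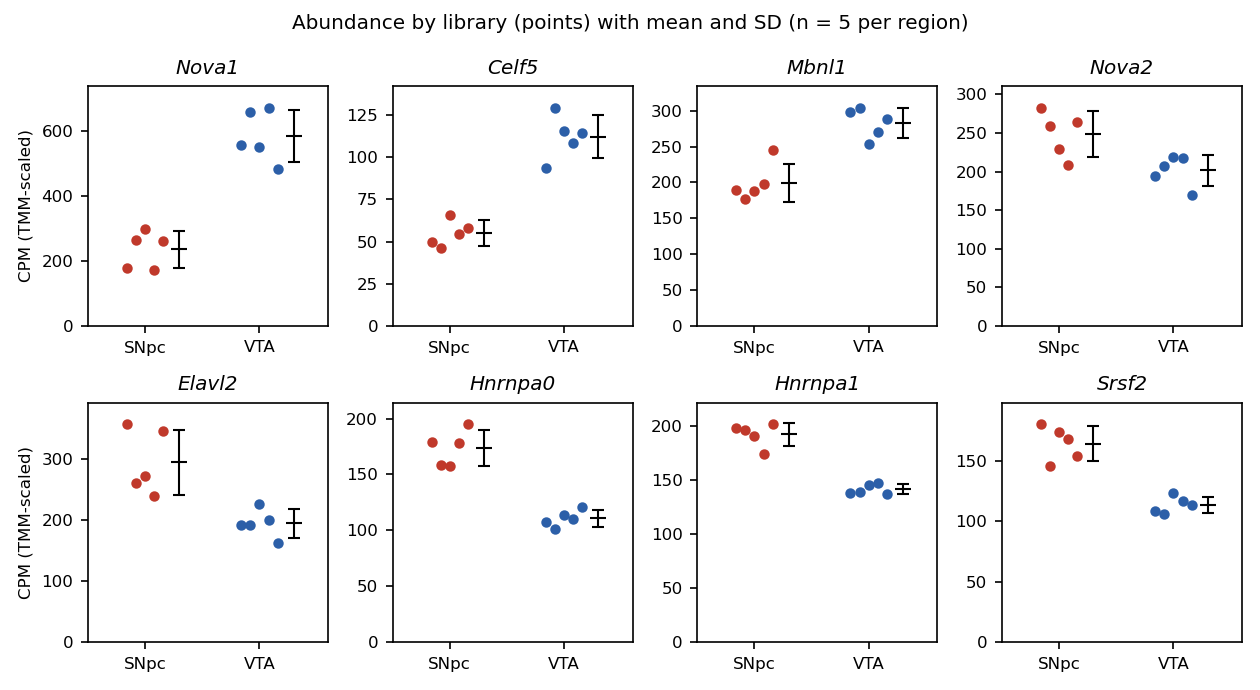
CPM (y axis, from 0) of 8 genes in each library, SNpc in red left of VTA in blue, with mean and SD of the 5 libraries beside the points. Nova1, Celf5 and Mbnl1 sit lower in SNpc, whereas Elavl2, Hnrnpa0, Hnrnpa1 and Srsf2 sit higher in SNpc with no overlap, and Nova2 overlaps.

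Ptbp1 gave the largest fold change in the set, but its gene body overlaps a neighbour on the opposite strand. Ptbp1 encodes the polypyrimidine tract-binding protein that silences neuronal exons, and lies at chr10:79854432-79864435. It had 36.6, 54.2, 60.9, 26.1 and 48.1 CPM in SNpc libraries, against 125, 167, 128, 160 and 162 CPM in VTA libraries. The regions did not overlap, with a log2 fold change of -1.72 ± 0.19 (edgeR adjusted p = 7.64e-06). The opposite strand carries Plppr3 (listed as BC005764), a neuronal phospholipid phosphatase-related gene whose RefSeq span overlaps that of Ptbp1 by 3961 bases. In the gene annotation used here, exons of the pair share 251 bases, or 5.30% of the exonic bases of Ptbp1, and 17.6% of the read-length windows of its main transcript are shared with other genes in all. Raw counts of Ptbp1 were 2302, 3325, 3889, 1712 and 2973 in SNpc, against 10830, 11090, 8096, 11179 and 11064 in VTA. Those of Plppr3 were 2509, 3104, 3774, 2451 and 2642 in SNpc, against 8466, 8558, 6838, 8543 and 8443 in VTA. The counts of the pair stayed near each other in every library, at 0.698 to 1.13 Ptbp1 counts per Plppr3 count in SNpc and 1.18 to 1.31 in VTA. Plppr3 had a log2 fold change of -1.34 (edgeR adjusted p = 1.17e-06). The library kit does not mark the strand, so reads from Ptbp1 and from Plppr3 cannot be told apart where they overlap, and the share of the count that this concerns was not tested.

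Ptbp2, the neuronal paralog that replaces PTBP1 during differentiation, had 73.3 ± 9.88 CPM in SNpc and 61.1 ± 3.45 CPM in VTA. Its libraries held 81.4, 63.1, 71.0, 65.5 and 85.8 CPM in SNpc, against 57.6, 62.2, 64.9, 63.4 and 57.3 CPM in VTA. Its log2 fold change of 0.26 ± 0.11 was not called (edgeR adjusted p = 0.0651). It was called without SNpc library 4, at 0.36, and in 5 other alternatives. The third paralog, Ptbp3, stands in the table under its older symbol Rod1 and so lies outside the name rule. It had 58.9 ± 6.23 CPM in SNpc and 127 ± 11.6 CPM in VTA, a log2 fold change of -1.10 ± 0.10 (edgeR adjusted p = 8.02e-07).

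**Figure D3:**
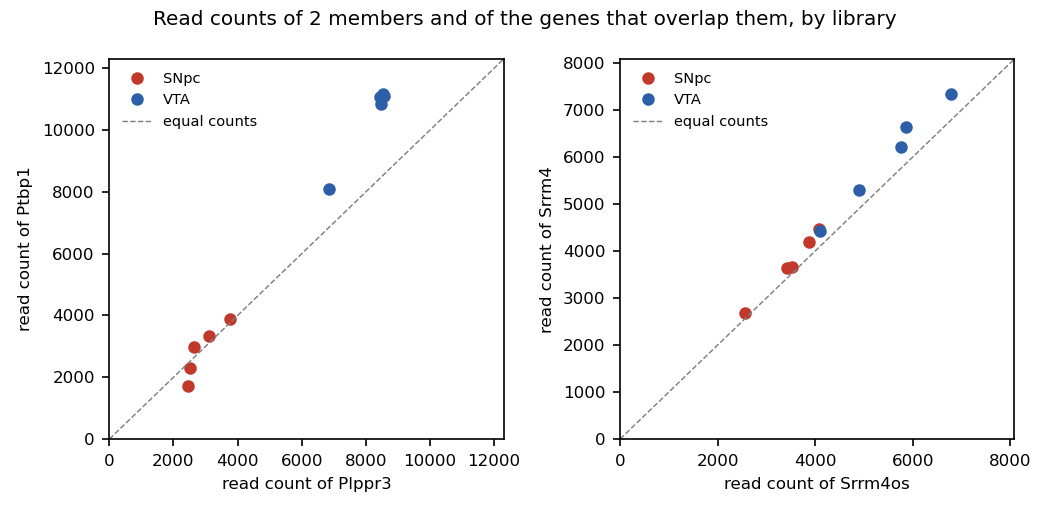
Raw read counts of Ptbp1 (left) and Srrm4 (right) on the y axes against those of the gene on the opposite strand, 1 point per library, SNpc in red and VTA in blue, with a dashed line at equal counts. The points of each pair lie near that line, with ratios of 0.698 to 1.31 for Ptbp1 over Plppr3 and 1.04 to 1.13 for Srrm4 over Srrm4os.

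The CELF family divided as well. Celf5, a neuronal CUG-binding family member, lies at chr10:81459227-81482730. It had 49.97, 46.2, 65.9, 54.2 and 58.2 CPM in SNpc libraries, against 93.5, 129, 116, 108 and 114 CPM in VTA libraries, with no overlap. Its mean was 54.9 ± 7.61 CPM in SNpc and 112 ± 13.0 CPM in VTA, a log2 fold change of -1.03 ± 0.12 (edgeR adjusted p = 4.96e-06). It remained called in all 19 alternatives, at -1.03 with glial markers as a covariate and -0.85 with the length trend removed. The annotated transcript Gm16105 shares 10.5% of its windows.

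Celf6 went the other way. It had 81.7, 86.3, 75.1, 67.0 and 85.8 CPM in SNpc, against 56.9, 57.4, 67.8, 64.4 and 63.5 CPM in VTA, where SNpc library 4 fell within the VTA range. The log2 fold change was 0.35 ± 0.10 (edgeR adjusted p = 0.0130), 0.47 without SNpc library 4, and 0.21 and not called with glial markers as a covariate. The within-library ratio of Celf5 to Celf6 was 0.535 to 0.877 in SNpc and 1.65 to 2.25 in VTA, a log2 difference of -1.38 (exact permutation, adjusted p = 0.0220).

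Celf4, which binds many synaptic mRNAs in excitatory neurons, was the most abundant gene of the set per kilobase in both regions. It had 1124, 956, 974, 886 and 1081 CPM in SNpc libraries, against 868, 919, 948, 998 and 1050 CPM in VTA libraries. The ranges overlapped in part, with SNpc libraries 1 and 6 above every VTA library and VTA library 1 below every SNpc library, and the log2 fold change of 0.07 ± 0.09 was not called (edgeR adjusted p = 0.560). Celf2 averaged 246 ± 36.8 CPM in SNpc and 312 ± 38.1 CPM in VTA and was called higher in VTA at -0.34 ± 0.11 (edgeR adjusted p = 0.0223), with overlap of the regions and a call lost in 7 alternatives. Celf1 averaged 78.2 ± 9.11 CPM in SNpc and 92.1 ± 13.9 CPM in VTA (log2 fold change -0.24), and Celf3 122 ± 17.6 CPM in SNpc and 152 ± 28.7 CPM in VTA (-0.32). Neither was called.

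Mbnl1, the muscleblind protein whose loss of function underlies much of the mis-splicing in myotonic dystrophy, lies at chr3:60472559-60629750. It had 190, 176, 188, 198 and 245 CPM in SNpc libraries, against 298, 304, 253, 271 and 288 CPM in VTA libraries. SNpc library 6 came nearest to the VTA range, and the regions did not overlap. The log2 fold change was -0.50 ± 0.10 (edgeR adjusted p = 7.45e-04). With the length trend removed it was -0.19 and no longer called (adjusted p = 0.0824), and its main transcript of 5655 bases is longer than the median of 3044 over all genes tested.

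Mbnl2, the muscleblind paralog that is prominent in the brain, had 187, 182, 187, 217 and 214 CPM in SNpc libraries, against 204, 181, 189, 179 and 203 CPM in VTA libraries. Its log2 fold change was 0.05 ± 0.09 (edgeR adjusted p = 0.716). The ratio of Mbnl1 to Mbnl2 was 1.02, 0.969, 1.01, 0.913 and 1.14 in SNpc, against 1.46, 1.67, 1.34, 1.51 and 1.42 in VTA. The ratio lay near 1 in SNpc libraries and above it in every VTA library. The log2 difference of -0.55 had an exact permutation adjusted p of 0.0220.

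**Figure D4:**
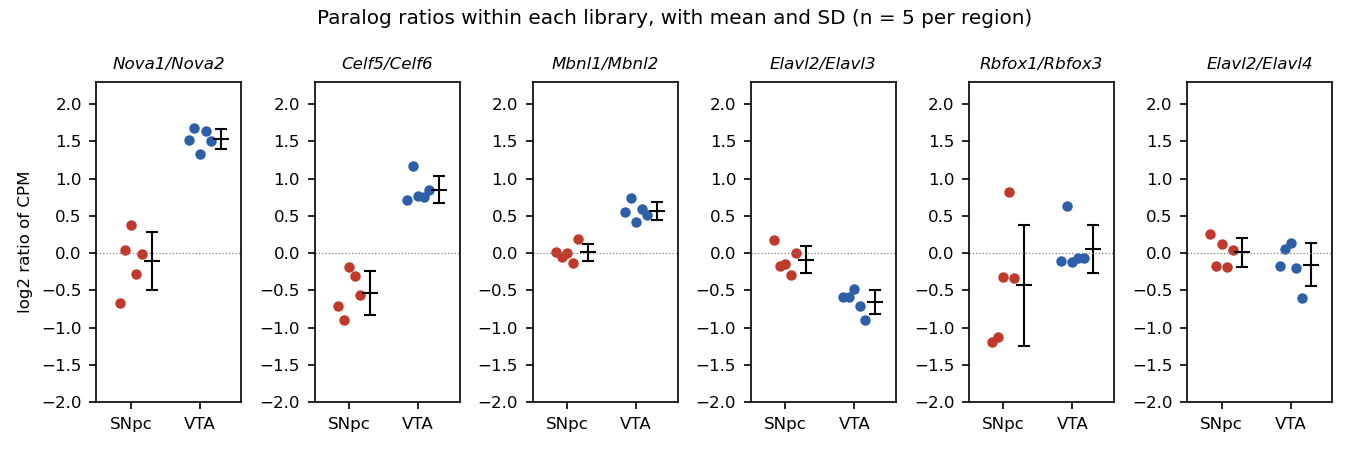
Log2 ratio of the CPM of 6 pairs of paralogs in each library (y axis), SNpc in red left of VTA in blue, with mean and SD. Nova1 over Nova2 lies near 0 in SNpc and near 1.53 in VTA, Mbnl1 over Mbnl2 near 0.01 in SNpc and 0.56 in VTA. Elavl2 over Elavl3 is higher in SNpc, and Rbfox1 over Rbfox3 and Elavl2 over Elavl4 overlap.

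No RBFOX gene was called by edgeR or by DESeq2, and 0 of the 3 had an unadjusted p under 0.05. Rbfox1, a neuronal splicing factor with nuclear and cytoplasmic forms, varied most of the tested genes in both regions, with a coefficient of variation of 60.3% in SNpc and 36.0% in VTA. It had 42.6, 43.0, 72.6, 154 and 67.1 CPM in SNpc libraries, against 92.5, 182, 88.4, 92.5 and 99.9 CPM in VTA libraries. SNpc library 4 and VTA library 2 stood apart from the rest of their regions. These were also the libraries with the highest summed nuclear-retained RNA, at 2643 and 2008 CPM, and whether that bears on Rbfox1 was not tested. Over all libraries the log2 fold change was -0.55 ± 0.38 (edgeR adjusted p = 0.291). Without SNpc library 4 it was -0.92 and called (adjusted p = 0.00685), and without VTA library 2 it was -0.30 and not called. With glial markers as a covariate it was -0.06.

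Rbfox2, which is widely expressed, was level between the regions to within the spread, at 241 ± 17.9 CPM in SNpc and 239 ± 5.39 CPM in VTA (log2 fold change 0.01 ± 0.08, edgeR adjusted p = 0.902). It was 0.43 and called with the length trend removed (edgeR adjusted p = 3.65e-04), on a main transcript of 6907 bases. Rbfox3, the NeuN antigen of mature neurons, had 96.9, 93.6, 90.4, 87.1 and 84.7 CPM in SNpc, against 99.6, 117, 96.2, 96.4 and 104 CPM in VTA. Its log2 fold change of -0.18 ± 0.09 was not called (edgeR adjusted p = 0.133). The within-library ratio of Rbfox2 to Rbfox3 was 2.45 to 3.08 in SNpc and 2.08 to 2.50 in VTA, a log2 difference of 0.19 (exact permutation, adjusted p = 0.0336).

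**Figure D5:**
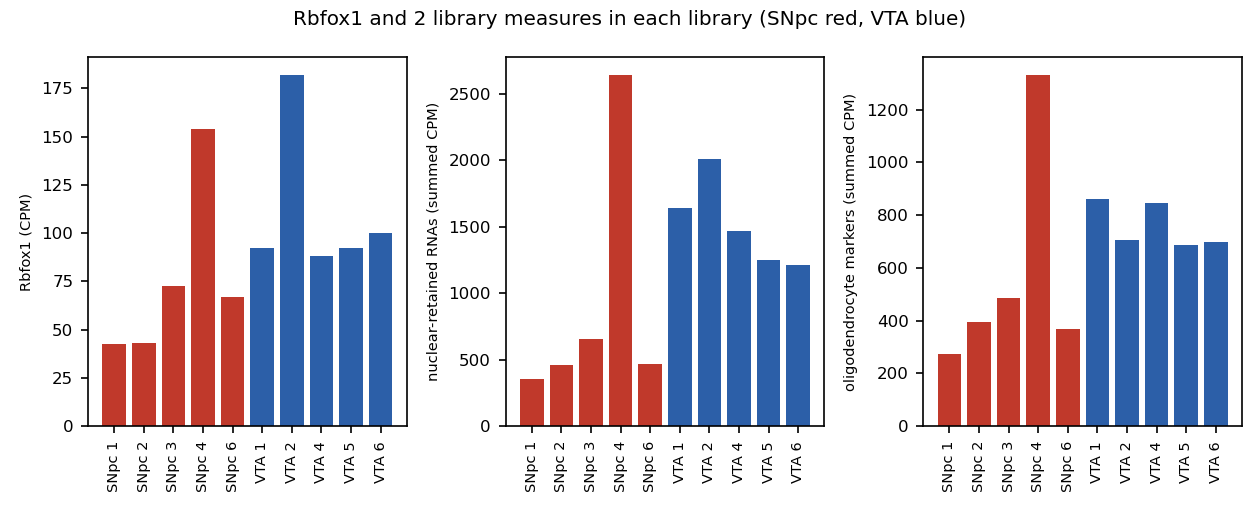
Rbfox1 CPM (left), summed CPM of 8 nuclear-retained RNAs (middle) and summed CPM of 10 oligodendrocyte markers (right) in each library, SNpc in red left of VTA in blue. SNpc 4, at 154 CPM, and VTA 2, at 182 CPM, are the highest for Rbfox1 and for nuclear-retained RNA in their regions, and SNpc 4 is also highest for oligodendrocyte markers.

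Of the 4 ELAVL genes, Elavl2 and Elavl4 were called higher in SNpc, and with the length trend removed all 4 were. Elavl2 (HuB), an RNA-stabilising protein of neurons, lies at chr4:91211533-91400108. It had 357, 260, 272, 240 and 347 CPM in SNpc libraries, against 192, 192, 227, 200.5 and 162 CPM in VTA libraries. The lowest SNpc library was above the highest VTA library. It was called at a log2 fold change of 0.60 ± 0.12 (edgeR adjusted p = 9.39e-04).

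Elavl4 (HuD), which promotes neurite growth and axonal mRNA stability, had 299, 294, 249, 273 and 337 CPM in SNpc, against 217, 185, 206, 230 and 245 CPM in VTA. Its regions also did not overlap, with a log2 fold change of 0.42 ± 0.10 (edgeR adjusted p = 0.00328). Both genes remained called in all alternatives except a minimum change of 1.5-fold. Elavl3 (HuC) had 310 ± 21.8 CPM in SNpc and 305 ± 17.5 CPM in VTA, a log2 fold change of 0.03 ± 0.08 that was not called. It was 0.28 and called with the length trend removed (edgeR adjusted p = 0.0103). Elavl1 (HuR), the ubiquitous member, had 73.0 ± 11.7 CPM in SNpc and 59.0 ± 6.19 CPM in VTA (0.31 ± 0.12, edgeR adjusted p = 0.0555). Within libraries, the ratio of Elavl2 to Elavl3 was 0.813 to 1.125 in SNpc and 0.537 to 0.719 in VTA, a log2 difference of 0.56 (exact permutation, adjusted p = 0.0220). That of Elavl2 to Elavl4 differed by 0.17 with overlap (exact permutation, adjusted p = 0.402).

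Among the STAR proteins, Khdrbs1 (Sam68), a signal-responsive splicing regulator, was higher in SNpc. It had 89.9, 83.3, 91.0, 79.0 and 81.9 CPM in SNpc libraries, against 57.3, 63.7, 75.3, 64.4 and 53.4 CPM in VTA libraries, with no overlap. This gave a log2 fold change of 0.44 ± 0.11 (edgeR adjusted p = 0.00408). Khdrbs2 (SLM1) and Khdrbs3 (SLM2), which control neurexin exons, had fewer reads and were not called. Khdrbs2 had 10.1 ± 3.42 CPM in SNpc and 10.2 ± 1.38 CPM in VTA (log2 fold change -0.02). Khdrbs3 had 21.1, 19.1, 19.8, 25.0 and 20.2 CPM in SNpc, against 18.3, 16.6, 24.4, 16.8 and 15.7 CPM in VTA (0.20).

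The Srrm genes encode serine- and arginine-rich splicing coactivators. Srrm4 (nSR100), the neuronal activator of microexons, had 57.8, 43.8, 57.3, 63.7 and 72.1 CPM in SNpc, against 76.7, 111, 69.7, 75.7 and 91.1 CPM in VTA. SNpc library 6 lay within the VTA range, and the log2 fold change was -0.52 ± 0.14 (edgeR adjusted p = 0.00866). The call was lost with the length trend removed (-0.07) and in the replicate block. Under the glial covariate the value stayed at -0.49 but was no longer called (edgeR adjusted p = 0.0720). The count of Srrm4 stood at 1.04 to 1.09 times that of the antisense gene Srrm4os (listed as 2410137F16Rik) in SNpc and at 1.08 to 1.13 times in VTA. Their RefSeq spans overlap by 26220 bases, where reads cannot be told apart without strand. In the gene annotation used here their exons share 68 bases, or 0.784% of those of Srrm4, and no window of its main transcript is shared with another gene.

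Srrm1, a coactivator that associates with the exon junction complex, had 127, 122, 130, 120.5 and 119 CPM in SNpc, against 108, 104, 115, 95.4 and 100.0 CPM in VTA. The regions did not overlap but came near each other, at 119 CPM in SNpc library 6 and 115 CPM in VTA library 4, and the log2 fold change was 0.24 ± 0.09 (edgeR adjusted p = 0.0357). The call was lost in 10 of the 19 alternatives, with values of 0.19 to 0.31 over all 19. Srrm2, a scaffold of nuclear speckles, had 932, 747, 755, 677 and 820 CPM in SNpc, against 956, 908, 704, 740 and 767 CPM in VTA. Its log2 fold change of -0.05 ± 0.11 was not called, and with the length trend removed it was 0.49 and called (edgeR adjusted p = 9.38e-04). The main transcript of Srrm2 has 8864 bases. Srrm3, a further microexon regulator, had 15.4 ± 5.56 CPM in SNpc and 17.1 ± 1.25 CPM in VTA (-0.16).

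All 11 tested SR protein genes had a positive log2 fold change, with a median of 0.27, but only Srsf1, Srsf2 and Srsf3 were called. Srsf2 (SC35), an SR protein of nuclear speckles, had 180, 145, 174, 168 and 154 CPM in SNpc libraries, against 108, 106, 123, 117 and 113 CPM in VTA libraries. The regions did not overlap and the log2 fold change was 0.53 ± 0.09 (edgeR adjusted p = 2.42e-04). Its count ran at 1.5 to 1.63 times that of the adjoining gene Mettl23 (listed as 1110005A03Rik) in SNpc and 1.47 to 1.58 times in VTA. Mettl23 shares 20.1% of the windows of Srsf2 and had a log2 fold change of 0.47, so reads of the pair may have been split either way.

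Srsf3, the smallest SR protein, had 174, 159, 146, 141 and 182 CPM in SNpc, against 126, 111, 145, 143 and 104 CPM in VTA (log2 fold change 0.35 ± 0.11, edgeR adjusted p = 0.0209). Srsf1, the founding SR protein, had 69.3 ± 10.9 CPM in SNpc and 51.1 ± 9.88 CPM in VTA (0.44 ± 0.15, edgeR adjusted p = 0.0264). Both overlapped between the regions, and each lost its call in 8 of the 19 alternatives. Under the glial covariate Srsf1 was at 0.21 and Srsf3 at 0.24, neither of them called. Srsf5 was the most abundant SR gene per kilobase, with 241, 214, 250, 206 and 197 CPM in SNpc, against 212, 196, 188, 170 and 185 CPM in VTA. Its log2 fold change of 0.22 ± 0.09 was not called (edgeR adjusted p = 0.0763). The other 7 ranged from 0.10 for Srsf12 to 0.44 for Srsf9 and were not called.

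Of 18 hnRNP genes, 9 were called higher in SNpc and 0 higher in VTA by edgeR, beside 17.8% and 20.4% of all genes tested. DESeq2 called 11 and 0, and 1 gene higher in VTA, Hnrnpul1, had an unadjusted p under 0.05. The called ones were Hnrnpa0, Hnrnpa1, Hnrnpa2b1, Hnrnpa3, Hnrnpab, Hnrnpc, Hnrnph2, Hnrnpk and Hnrnpl. Of these, Hnrnpl lost its call in 12 of the 19 alternatives, Hnrnpc in 4 and Hnrnpa3 in 9, and Hnrnpa3 turned its direction in 2 more. Hnrnpa0, an intronless hnRNP A/B gene at chr13:58125879-58128556, had 179, 158, 157, 178 and 195 CPM in SNpc libraries, against 108, 101, 114, 110 and 121 CPM in VTA libraries. Every SNpc library lay above every VTA library. The log2 fold change was 0.65 ± 0.09 (edgeR adjusted p = 4.71e-05), 0.65 with glial markers as a covariate and 0.56 with the length trend removed. No window of its transcript was shared with another gene.

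Hnrnpa1, which often competes with SRSF1 at splice sites, had 199, 197, 191, 175 and 202 CPM in SNpc, against 139, 139, 146, 148 and 137 CPM in VTA. The regions did not overlap, and the log2 fold change was 0.44 ± 0.08 (edgeR adjusted p = 4.71e-04). Near-identical copies share 42.2% of its windows. Hnrnpa3 had 334, 262, 251, 261 and 301 CPM in SNpc, against 248, 237, 239, 230 and 224 CPM in VTA, a log2 fold change of 0.26 ± 0.09 (edgeR adjusted p = 0.0353). Copies share 90.2% of its windows and its value was -0.03 with the length trend removed, so its count is uncertain.

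Hnrnpa2b1, which also carries mRNA along dendrites, averaged 261 ± 38.7 CPM in SNpc and 174 ± 20.5 CPM in VTA (log2 fold change 0.58). Hnrnpa2b1 was at 0.29 and no longer called with the length trend removed (edgeR adjusted p = 0.0532), on a main transcript of 1662 bases. Hnrnph2, which binds G-rich elements, averaged 87.4 ± 8.04 CPM in SNpc and 60.4 ± 6.72 CPM in VTA (0.53). Hnrnpk, a poly(C)-binding protein, averaged 232 ± 16.3 CPM in SNpc and 179 ± 6.42 CPM in VTA (0.37), and other genes share 28.6% of its windows. Hnrnpab averaged 121 ± 7.22 CPM in SNpc and 90.1 ± 7.60 CPM in VTA (0.42). Its opposite-strand neighbour Phykpl (listed as Agxt2l2) also had 0.42, with 1.22 to 1.41 Hnrnpab counts per Phykpl count over all libraries. Exons of the pair share 809 bases, or 29.1% of the exonic bases of Hnrnpab, and Phykpl shares 23.2% of its windows. Reads of the pair cannot be told apart there without strand, so the Hnrnpab count is uncertain. The regions did not overlap for Hnrnpa2b1, Hnrnph2, Hnrnpk and Hnrnpab. Hnrnpul1 had the only negative value, -0.24, with 67.1 ± 3.28 CPM in SNpc and 79.1 ± 8.58 CPM in VTA, and was not called. The gene of Hnrnpd's relative Hnrnpdl, listed under the older symbol Hnrpdl and outside the name rule, had 0.46 (edgeR adjusted p = 0.00684).

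Counted together, the SR and hnRNP genes had 12 of 29 called higher in SNpc and 0 called higher in VTA by edgeR, beside 17.8% and 20.4% of all genes tested, against 16 and 0 by DESeq2. Without SNpc library 4 the counts were 16 and 0, beside 3317 and 3193 of all 15904 genes tested. With glial markers as a covariate they were 8 and 0, beside 1580 and 2188 of all 15685 genes. The median was 0.29 under the covariate, against 0.27 over all libraries with no covariate. The 26 genes of the other families had 6 called in each direction. The summed level of the SR and hnRNP genes was 3448, 2969, 3090, 3113 and 3336 CPM in SNpc libraries, against 2710, 2492, 2668, 2599 and 2414 CPM in VTA libraries. All SNpc sums were above all VTA sums. The sum runs over the same genes as the counts above, so it restates their calls and adds no separate evidence. The sum over all 55 tested genes was 7806 to 8822 CPM in SNpc and 7862 to 8315 CPM in VTA and did not separate the regions (exact permutation adjusted p = 0.499). SR and hnRNP transcripts are short next to those of the other families, with a median of 2676 bases against 3963.5. With the length trend removed and the scale refitted, 12 of the 29 were called higher in SNpc and 0 higher in VTA. Their median was then 0.28. Among all genes, 14.7% and 16.4% were called in these directions. Over the whole set, 24 of the 55 genes were called higher in SNpc and 5 higher in VTA.

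Sequence was read for genes that moved together and for the NOVA pair, as the 250 bases before a start annotated by RefSeq. Such a start can lie inside the gene. The windows of Nova1 and Hnrnpa1 lie within the RefSeq spans of these genes, chr12:46697895-46819480 and chr15:103239943-103246698, so they need not be the main promoters. RefSeq windows on GRCm38.p6 matched 50 of the 55 tested genes. The windows were searched on both strands for CCAAT, for the GC box GGGCGG, for TATAAA and for the E-box CACGTG, where CCAAT and GGGCGG can share end bases, and for the palindromic NRF1 consensus. In the runs below, on the strand of the gene and 5′ to 3′, capitals mark these matches. The NOVA genes are shown because they went in opposite directions, and Hnrnpa0 and Hnrnpa1 because they had the smallest p among the hnRNP genes. For Nova1, at chr12:46818930-46819017 on the minus strand, the run of 88 bases stops short of an annotated exon. Its matches were counted over all 250 bases of the window.
Nova1: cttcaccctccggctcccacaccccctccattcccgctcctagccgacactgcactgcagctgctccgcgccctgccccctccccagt
Nova2, chr7:18925638-18925887, plus strand: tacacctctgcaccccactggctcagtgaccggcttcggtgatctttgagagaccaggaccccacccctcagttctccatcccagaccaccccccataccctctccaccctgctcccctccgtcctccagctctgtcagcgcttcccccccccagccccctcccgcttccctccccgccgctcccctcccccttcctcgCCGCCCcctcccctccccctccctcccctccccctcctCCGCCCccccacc
Hnrnpa0, chr13:58128557-58128806, minus strand: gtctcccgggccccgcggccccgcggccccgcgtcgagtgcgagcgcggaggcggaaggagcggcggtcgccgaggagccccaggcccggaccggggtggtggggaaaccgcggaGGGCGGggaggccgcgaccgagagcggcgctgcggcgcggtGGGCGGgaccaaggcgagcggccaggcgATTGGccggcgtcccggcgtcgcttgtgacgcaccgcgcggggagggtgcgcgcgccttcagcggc
Hnrnpa1, chr15:103240147-103240396, plus strand: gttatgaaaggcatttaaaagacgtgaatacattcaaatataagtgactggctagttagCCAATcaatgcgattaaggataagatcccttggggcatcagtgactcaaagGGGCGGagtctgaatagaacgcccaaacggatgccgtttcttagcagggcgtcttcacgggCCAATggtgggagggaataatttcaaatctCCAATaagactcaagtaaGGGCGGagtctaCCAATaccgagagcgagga

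The windows of both NOVA genes held no CCAAT, that of Hnrnpa0 held 1 and that of Hnrnpa1 held 4. A CCAAT in at least 1 window was found for 15 of 17 genes of the set called higher in SNpc, 2 of 6 called higher in VTA and 12 of 27 not called. Among all 12333 tested genes with a window the share was 40.1%, and it was 42.6% for all genes called higher in SNpc and 38.3% for all called higher in VTA. Within the SR and hnRNP genes, 11 of the 12 called and 5 of the 16 not called with a window held it. GGGCGG was found for 70.6% of the genes of the set called higher in SNpc and 60.7% of all tested genes, and TATAAA for 11.8% and 8.45%. CACGTG was found for 5.88% and 9.34%, and the NRF1 consensus for 5.88% and 1.65%. A match is only the presence of these letters in the window, and no test was made of these shares.

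The core splicing machinery was described from lists of other genes. Of 21 tested proteins of the U1 and U2 snRNPs and of branch point recognition, 10 were called higher in SNpc and 0 higher in VTA by edgeR, with a median log2 fold change of 0.40, beside 17.8% and 20.4% of all genes tested. DESeq2 called 11 and 0, and 0 had an unadjusted p under 0.05 in the VTA direction. With the length trend removed the counts were 6 and 0 with a median of 0.18, beside 14.7% and 16.4% of all genes. With glial markers as a covariate they were 5 and 0 with a median of 0.38, beside 1580 and 2188 of all 15685 genes. The branch point protein Sf1 had 125 ± 12.4 CPM in SNpc and 91.8 ± 6.16 CPM in VTA (0.44), and the U2 subunit Sf3b2 135 ± 9.48 CPM in SNpc and 99.3 ± 6.51 CPM in VTA (0.45). Of 8 Sm ring proteins, 6 were called higher in SNpc, with a median of 0.42, but 1 was called with the length trend removed, where the median was -0.05, and 3 under the glial covariate, where it was 0.49. The most abundant, the neuronal Snrpn, whose transcript also carries Snurf, had 1521 ± 118 CPM in SNpc and 1196 ± 145 CPM in VTA (0.35), and Snrpd3 had 9.62 ± 1.45 CPM in SNpc and 5.43 ± 0.976 CPM in VTA (0.83).

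The tri-snRNP and catalytic proteins had 6 of 26 called higher in SNpc, among them Prpf19 (0.52) and Usp39 (0.55), and 1 higher in VTA, the helicase Snrnp200 (-0.63), beside 17.8% and 20.4% of all genes tested. Kinases that phosphorylate SR proteins had Srpk2 called higher in SNpc (0.27) and Dyrk1a called higher in VTA (-0.36) among 9 tested. Without SNpc library 4 the tri-snRNP list had 9 and 1 and the kinases 3 and 1, beside 3317 and 3193 of all 15904 genes. With the length trend removed the tri-snRNP list had 5 and 0 and the kinases 3 and 0, beside 14.7% and 16.4% of all genes. Under the glial covariate the tri-snRNP list had 3 and 2 and the kinases 1 and 1, beside 1580 and 2188 of all 15685 genes. Of 50 other splicing and nuclear RNA-binding regulators, 13 were called higher in SNpc and 9 higher in VTA, against 8 and 6 with glial markers as a covariate. Over all genes tested, 17.8% and 20.4% were called in these directions. Msi2 (Musashi-2) had 1215 ± 135 CPM in SNpc and 619 ± 74.0 CPM in VTA (0.97), and the cold-inducible Rbm3 had 89.9 ± 2.63 CPM in SNpc and 49.0 ± 8.84 CPM in VTA (0.88). Qk, the quaking protein that is also abundant in glia, had 170 ± 57.0 CPM in SNpc and 315 ± 19.6 CPM in VTA (-0.89). Syncrip (hnRNP Q) had 43.5 ± 6.72 CPM in SNpc and 82.2 ± 6.59 CPM in VTA (-0.92).

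Cytoplasmic RNA-binding proteins of neuronal mRNA transport and translation had 2 of 28 called higher in SNpc and 15 higher in VTA. Of all genes tested, 17.8% and 20.4% were called in these directions. On the log2 scale these 28 genes had a median of -0.59. With the length trend removed the counts were 5 and 14, beside 14.7% and 16.4% of all genes. With glial markers as a covariate they were 2 and 15, beside 1580 and 2188 of all 15685 genes. Pum2 (Pumilio-2), a translational repressor, had 180 ± 13.6 CPM in SNpc and 423 ± 43.2 CPM in VTA (-1.23, edgeR adjusted p = 1.44e-07). Cpeb4, which controls polyadenylation of stored mRNA, had 70.001 ± 7.18 CPM in SNpc and 158 ± 15.4 CPM in VTA (-1.18, edgeR adjusted p = 3.92e-07). Those higher in SNpc were the granule protein Caprin1 (0.44) and Stau2 (0.32), a double-stranded RNA-binding protein of dendrites.

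Per kilobase of the main transcript, Celf4 stood first in both regions, at 251 ± 24.3 CPM per kilobase in SNpc and 239 ± 17.6 in VTA. Hnrnpa3, at 170 ± 21.0 in SNpc and 142 ± 5.68 in VTA, stood second, but fell to rank 12 in SNpc and 13 in VTA when the longest transcript was taken as the length. Celf4 stayed first with either length. Hnrnpa2b1, at 157 ± 23.3 in SNpc and 105 ± 12.3 in VTA, and Srsf5, at 141 ± 14.5 in SNpc and 121 ± 9.77 in VTA, came next in SNpc. In SNpc the neighbours among Hnrnpa3, Hnrnpa2b1 and Srsf5 did not differ beyond the spread. Nova1 stood at rank 23 in SNpc, with 32.9 ± 8.01 CPM per kilobase, and at rank 7 in VTA, with 81.7 ± 11.2. Hnrnpr was the lowest tested gene in both regions, at 2.70 ± 0.349 in SNpc and 2.48 ± 0.564 in VTA, on a main transcript of 21452 bases. When the longest transcript was taken as the length, Khdrbs2 was the lowest instead, at 1.91 in SNpc and 1.94 in VTA. Of the 36 within-family pairs of the CELF, ELAVL, KHDRBS, MBNL, NOVA, PTBP, RBFOX and SRRM families, 18 had a ratio that differed between the regions at an adjusted exact permutation p under 0.05, and for 13 the libraries did not overlap. Genes recur across these pairs, so the pairs are not independent, and the share among other pairs of genes was not computed. Of all single genes tested, 38.2% were called and 26.6% did not overlap. Ptbp1 over Ptbp2 is among the 18 and carries the limit of the Ptbp1 count.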

How the data were processed

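RNA of dopaminergic neurons was amplified with a kit that does not mark the strand and read from 1 end, per the labels' protocols. The authors deposited raw read counts per gene. Per the submitters' processing notes, TopHat2 2.0.8 was used with build mm10. For the counting program, annotation and strand setting, nothing is stated in the sources used here. Of the 23079 genes, 3036 had no count, and 0 rows named no gene. Identical columns were merged, and every other pair within a region differed (chi-square of 43.1 to 148 per gene).

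The deposited counts entered edgeR 4.0.16, under R 4.3.3 (filterByExpr, TMM, robust quasi-likelihood F test, no covariate). The common biological coefficient of variation was 39.6%, and log2 fold changes had a median standard error of 0.19. Transcript lengths and coordinates are from GENCODE on GRCm38, and windows of 100 bases, the read length, measured shared sequence. The length trend was removed per library with a spline of 4 degrees of freedom on log2 transcript length, with the library scale kept or refitted (values given are refitted). The glial covariate is the log2 summed level of glial markers in each library. Ratios and library measures were compared with SciPy 1.17.1 by two-sided exact permutation tests. The test was checked on simulated counts. It recovered 18 of 50 genes changed 1.5-fold, 36 of 50 changed 2-fold and 47 of 50 changed 4-fold. There were 8 false calls among the 15521 genes run, and a gene that was not called may still differ. Genes named in every library are, per family, the largest called change in each direction, the most abundant per kilobase and the 2 smallest p. From each other list they are the 2 smallest p in each direction and the most abundant. The members and lists were chosen with earlier results of these data known. Alternatives were DESeq2 1.42.0, other scales, filters and covariates, the 12 columns as deposited, a replicate block and leaving out each library.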

Additional observations from a re-analysis of the deposited data

Results flagged for a closer look

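Among 110 groups of 5 libraries, 4 held a library that stood apart by its gap to the others, where chance gives about 1 in 20. Rbfox1 was highest in SNpc library 4, at 154 CPM, against 42.6 to 72.6 CPM in the other SNpc libraries. It was also highest in VTA library 2, at 182 CPM, against 88.4 to 99.9 CPM in the other VTA libraries. Srsf4 was highest in SNpc library 1, at 50.2 CPM, against 38.5 to 39.8 CPM in the other SNpc libraries. Hnrnpm was lowest in VTA library 6, at 28.6 CPM, against 31.4 to 32.5 CPM in the other VTA libraries. Each of the 4 libraries was apart in 1 group, and SNpc library 4 and VTA library 2 also had the most nuclear-retained RNA of their regions. Srsf4 shares 62.5% of its windows with Gm12992 and Hnrnpm 27.9% with March2, so these counts are less certain.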

How the results depend on the processing

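The number of genes called in all was 5996, and fell to 3768 with glial markers as a covariate and to 1240 against a minimum change of 1.5-fold. Of the 55 genes described, those higher in SNpc numbered 18, but 11 with the glial covariate and 0 at 1.5-fold, and those higher in VTA 6, but 10 with the 12 columns as deposited and 3 at 1.5-fold. Leaving out 1 library gave 5074 to 6510 genes in all, 12 to 24 higher in SNpc and 5 to 7 higher in VTA, with the highest counts of SNpc without SNpc library 4 and the lowest without SNpc library 1 or VTA library 6. The replicate block gave 4385 genes in all, 12 higher in SNpc and 4 higher in VTA. The labels do not say that a number pairs libraries, so the numbers were not taken as pairs. Same-numbered libraries deviated together with correlations of -0.07 to 0.04. This cannot exclude pairing, since the true number of a merged column is unknown. Of the 24 called genes, 12 kept their call in every alternative except the 1.5-fold minimum, and Nova1, Celf5 and Ptbp1 in all 19.

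Of 1045 log2 fold changes of single genes under alternatives, 36 turned their direction, in 13 genes. With the length trend removed, scale kept or refitted, Celf1 turned to 0.24 and 0.24, Hnrnpa3 to -0.020 and -0.031, Hnrnph3 to -0.097 and -0.11, Khdrbs3 to -0.027 and -0.036, Srsf5 to -0.083 and -0.094, and Srrm2 to 0.50 and 0.49. With library totals as the scale, Elavl3 turned to -0.026, Hnrnpul2 to -0.0082, Mbnl2 to -0.0044 and Rbfox2 to -0.038. With the glial covariate, Celf4 turned to -0.061, Elavl3 to -0.026, Rbfox2 to -0.051 and Khdrbs2 to 0.064. With the replicate block, Khdrbs2 turned to 0.043 and Srrm3 to 0.018. DESeq2 gave 0.0086 for Khdrbs2, and 12 columns gave 0.053 for Khdrbs2 and -0.0049 for Rbfox2. Leaving out 1 library gave -0.014 to 0.10 for Elavl3, -0.010 to 0.13 for Hnrnph3, -0.015 to 0.094 for Hnrnpul2, -0.15 to 0.15 for Khdrbs2, -0.013 to 0.095 for Rbfox2, -0.12 to 0.057 for Srrm2 and -0.34 to 0.021 for Srrm3. Hnrnpa3 was the only called gene among these. The log2 ratio of Celf1 to Celf3 turned to -0.030 without SNpc library 4, an alternative chosen after seeing the data. The cause of these turns was not tested. Mbnl3, at most 0.126 CPM in any library, was too low to test. Khdrbs2, Srrm3 and Srsf9, at under 20 CPM per region, varied between SNpc libraries with coefficients of variation of 32.0 to 36.2%.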
